A study of Mus musculus with 12 samples.

Results

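The 10 genes described here were 6 cadherins other than the endothelial *Cdh5* and 4 catenins, out of 35727 genes in the count table, and they were chosen by symbol: *Cdh2*, *Cdh3*, *Cdh4*, *Cdh6*, *Cdh11*, *Cdh13*, *Ctnnb1*, *Ctnna1*, *Ctnnd1* and *Jup*. They were followed through *Sox17*-*Erg* reprogramming of mouse cardiac fibroblasts toward induced endothelial cells (iECs), in bulk RNAseq of 12 libraries from cultures at Day 3, Day 7 and 4 weeks. The control samples, labelled fibroblast and named PMX after the retroviral backbone, and the *Sox17*-*Erg* samples, labelled iEC, each had 2 libraries per time point. All cultures came from hearts of C57BL/6J mice taken at Day 0 to Day 3 of life, which were pooled, depleted of PECAM1-positive cells and enriched for THY1-positive cells, and all were grown in EGM2, an endothelial growth medium. The factors came from retroviruses, and the libraries were made from whole cultures, so a value averages over cells that took up the factors and cells that did not. No source used here says that replicates came from separate isolations, so the p-values measure the spread between these libraries, which may be technical.

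Cadherins are calcium-dependent adhesion molecules that hold neighboring cells together at adherens junctions, mostly by binding the same cadherin on the next cell. Their cytoplasmic tails bind β-catenin or plakoglobin, which bind α-catenin and through it actin, while p120-catenin binds closer to the membrane and keeps the cadherin at the surface. Fibroblasts are known for N-cadherin and cadherin-11, and vascular endothelium for VE-cadherin, the product of *Cdh5*, together with N-cadherin. Endothelium also makes T-cadherin, the product of *Cdh13*, so that "non-endothelial" holds for this gene only in the sense that it is not *Cdh5*.

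Total counts ranged from 19011635 to 41240449 per library. The introduced genes were higher in the *Sox17*-*Erg* samples, by 11.35 to 14.73 on the log2 scale for *Sox17* and by 4.67 to 8.49 for *Erg* across the 3 time points. Markers fitted the labels in part. The summed level of 8 endothelial markers was 12.4 to 55.4 CPM (read counts scaled to the library size with TMM factors) in the control libraries and 302 to 696 in the *Sox17*-*Erg* libraries, and all 8 fibroblast markers were detected in all 12 libraries, with sums of 12500 to 35800 CPM in control and 10100 to 39100 in *Sox17*-*Erg* samples. The control libraries were not free of endothelial RNA, since *Cdh5* stood at 14.3 CPM in replicate 2 of Day 3 and 8.08 in replicate 2 of Day 7, against 0.230 to 0.910 in the other 4. Replicates differed beyond counting error in each group, and the ratio of their chi-square to its degrees of freedom was 27.4 to 70.4. Macrophage markers summed to 6.26 to 118 CPM in control and 9.20 to 46.5 in *Sox17*-*Erg* libraries, and epithelial markers to 9.88 to 55.0 and 3.93 to 40.2.

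Across the 3 time points, *Cdh6* and *Cdh13* rose in *Sox17*-*Erg* samples throughout, *Cdh11* fell from Day 7, *Cdh3* was lower at 4 weeks, and earlier too in fits with a replicate block, and *Ctnnb1* rose by 4 weeks. *Ctnnd1* was higher at 4 weeks with a call that 13 of 19 alternatives did not keep. *Cdh2*, *Ctnna1* and *Jup* passed the test at no time point, and *Cdh4* did not pass the filter on low counts. Calls were made with the edgeR quasi-likelihood fit where p, adjusted over 15506 genes tested by the Benjamini-Hochberg method, was under 0.05. At Day 3, 2 of 9 members tested were higher, where 7.19% of all genes were called higher, and 0 were lower, where 5.13% were. By an unadjusted p under 0.05, 2 members were lower at Day 3, and DESeq2 called 1. At Day 7, 2 members were higher and 1 lower, against 9.48% and 7.93% of all genes. At 4 weeks, 4 were higher and 2 lower, against 11.9% and 11.0%. The same shares stand beside the 4-week counts of markers and related genes below. The 2 members called higher at all 3 time points stood against 3.59% of all genes, and the share of genes lower at all 3 was 2.27%. Over the 3 time points the median log2 fold change of the 9 members was 0.13, 0.13 and 0.14, beside 0.01, 0.0058 and −0.01 over all genes tested. In whole cultures, fewer cells of a type and less RNA per cell cannot be told apart.

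**Figure D1:**
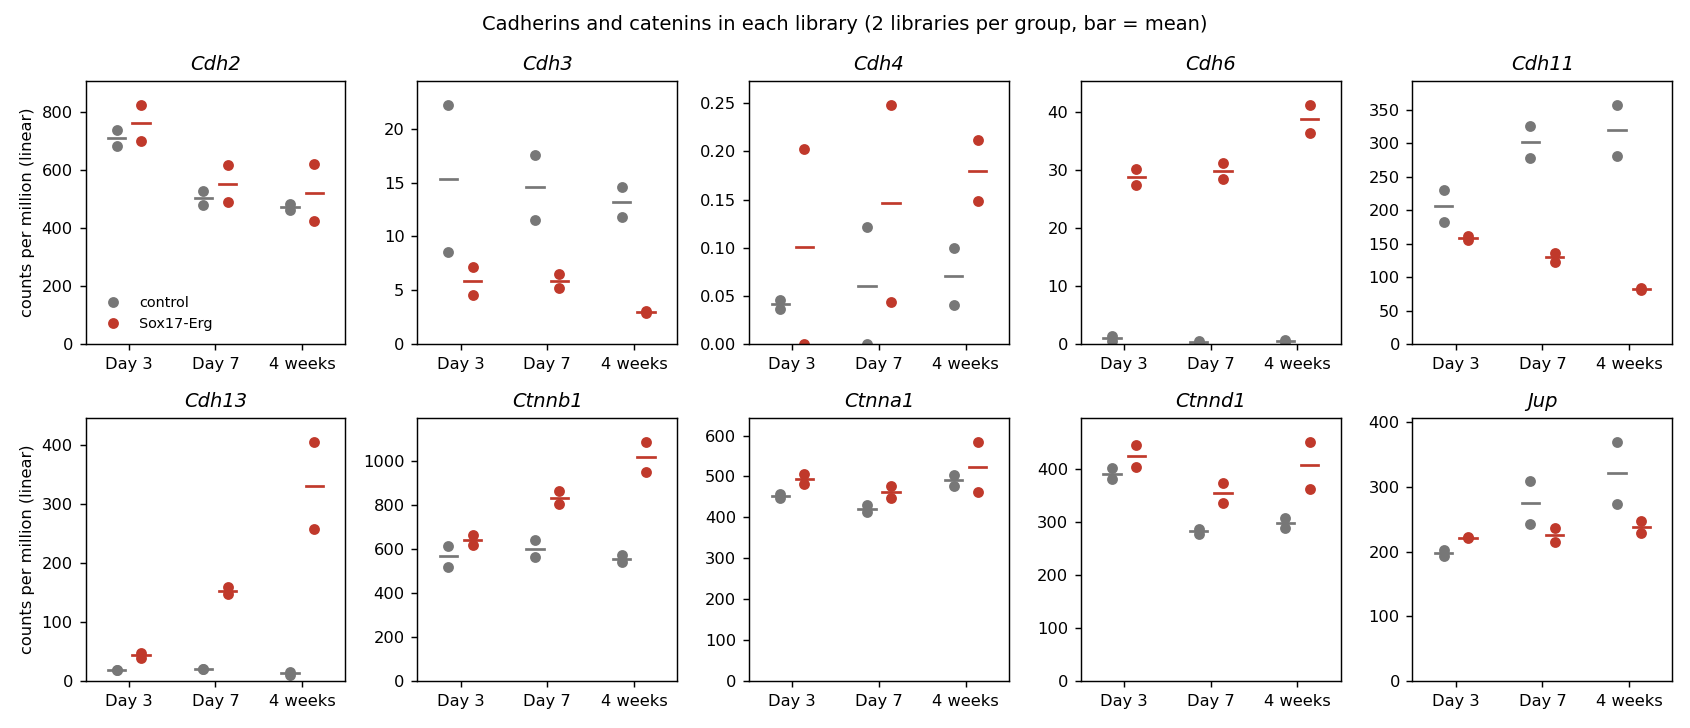
CPM (linear axes from 0, one scale per panel) of the 10 cadherin and catenin genes in each library, control in grey and *Sox17*-*Erg* in red, with a bar at the mean of the 2 libraries of a group. *Cdh6* and *Cdh13* separate upward at every time point, *Cdh11* moves apart in opposite directions over time, and *Cdh2* and *Ctnna1* stay side by side.

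Sequence upstream of the start site was at hand for 4 of the 10 genes, from RefSeq on GRCm38.p6, and is shown for *Cdh6*, which had the largest fold change among the members, and *Ctnnb1*, the catenin with the largest. Each window holds the 250 bases before a RefSeq start, 5′ to 3′ on the gene's strand, at chr15:13173676-13173925 on the minus strand for *Cdh6* and chr9:120933150-120933399 on the plus strand for *Ctnnb1*. The *Ctnnb1* window is that of the more upstream of its 2 RefSeq starts in the table, and it lies inside the wider gene span of the GENCODE annotation. Capitals mark GGAAG, the core of sites bound by ETS factors such as ERG, and ACAAT, the core of sites bound by SOX factors, on either strand. The motifs share no bases in either window.
*Cdh6* upstream: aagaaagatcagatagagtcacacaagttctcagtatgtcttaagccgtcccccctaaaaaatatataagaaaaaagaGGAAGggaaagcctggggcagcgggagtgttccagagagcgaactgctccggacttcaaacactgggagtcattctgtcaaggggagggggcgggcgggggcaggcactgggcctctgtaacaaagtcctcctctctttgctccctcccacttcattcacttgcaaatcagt
*Ctnnb1* upstream: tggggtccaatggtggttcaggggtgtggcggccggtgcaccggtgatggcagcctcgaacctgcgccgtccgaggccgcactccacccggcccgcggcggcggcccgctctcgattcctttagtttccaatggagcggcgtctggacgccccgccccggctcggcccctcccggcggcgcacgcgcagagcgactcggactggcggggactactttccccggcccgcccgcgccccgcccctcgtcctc
The *Cdh6* window held 1 GGAAG and 0 ACAAT, with a GC content of 51.2%. The *Ctnnb1* window held 0 of either, with a GC content of 74.8%. Over all 6 windows of the 4 genes, 3 held GGAAG and 1 held ACAAT. Of 32851 promoters of this length in the table, 64.1% held GGAAG and 27.7% held ACAAT on at least 1 strand. Such matches describe letters in a window and are not sites of binding.

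*Cdh6* encodes K-cadherin, a type II cadherin known from kidney and neural crest, and lies on chromosome 15 at 13028701–13173675 of GRCm38. Control libraries stood at 1.42 and 0.555 CPM on Day 3, 0.614 and 0.0402 on Day 7, and 0.301 and 0.773 after 4 weeks, and *Sox17*-*Erg* libraries at 27.4 and 30.3, 28.5 and 31.2, and 41.3 and 36.4. Every *Sox17*-*Erg* library was thus far above every control library, and the lowest control value rested on 1 count. The difference was 28.3-fold at Day 3 (log2 4.83 ± 0.56 SE, adjusted p = 0.0016), 88.6-fold at Day 7 (6.47 ± 0.64, adjusted p = 0.00035) and 77.0-fold at 4 weeks (6.27 ± 0.60, adjusted p = 0.00016). The level was already up by the first time point. Leaving out 1 control library of the same day moved the log2 value to 4.31 or 5.69 on Day 3 and to 5.59 or 9.36 on Day 7, and the calls held. The change in effect from Day 3 to 4 weeks was 1.44 with a 95% interval of −0.37 to 3.25, adjusted p = 0.42, and within *Sox17*-*Erg* samples it was 0.43, adjusted p = 0.50.

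The 3 genes with the profile nearest to *Cdh6*, by the root mean square difference of centered log2 CPM over 12 libraries, were *Slc6a15* (0.61), an amino acid transporter gene, *Aldh1a3* (0.73), a retinaldehyde dehydrogenase gene, and *Slco5a1* (0.75). Their fold changes at 4 weeks were 6.82, 7.35 and 6.09 on the log2 scale.

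*Cdh13* encodes T-cadherin, which is held in the membrane by a lipid anchor, lacks the tail that binds catenins, and binds adiponectin and LDL. It lies on chromosome 8 at 118283733–119324921. In control libraries it stood at 18.7 and 19.1 CPM on Day 3, 20.7 and 20.5 on Day 7, and 15.9 and 9.68 after 4 weeks, and in *Sox17*-*Erg* libraries at 46.8 and 39.6, 159 and 147, and 406 and 257. The groups did not overlap, and the gap widened with each time point. Against control it was 2.29-fold higher at Day 3 (log2 1.19 ± 0.25, adjusted p = 0.019), 7.44-fold at Day 7 (2.89 ± 0.26, adjusted p = 0.00023) and 25.8-fold at 4 weeks (4.69 ± 0.28, adjusted p = 1.7e-05). The call at Day 3 was lost without control replicate 1 (adjusted p = 0.11), control replicate 2 (0.12) or *Sox17*-*Erg* replicate 1 (0.16) of that day, while the log2 value stayed between 1.03 and 1.31 over all alternatives.

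The effect on *Cdh13* was larger at 4 weeks than at Day 3 by 3.50 ± 0.36 on the log2 scale (adjusted p = 0.0031, edgeR interaction), where 2.22% of all genes were called in this direction. Within *Sox17*-*Erg* samples it rose 7.68-fold from Day 3 to 4 weeks (adjusted p = 0.00033), and within control samples the log2 change was −0.56 (adjusted p = 0.14, and 0.0050 with a replicate block within each time point). The nearest profiles were those of *Grpr* (0.35), a receptor for gastrin-releasing peptide, *Unc13b* (0.36), a synaptic vesicle priming gene, and *Klhl34* (0.37). On the log2 CPM scale with a prior count, *Klhl34* was near although its fitted log2 fold changes were larger, from 5.36 at Day 3 to 8.60 at 4 weeks.

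Some cell type markers were also higher in *Sox17*-*Erg* samples. The summed level of 8 endothelial markers is given above. Of the 7 tested, 3, 4 and 6 were called higher at Day 3, Day 7 and 4 weeks. Of 6 smooth muscle and pericyte markers, 1, 5 and 4 were. Their sums were 484 to 3630 CPM in control and 1760 to 4640 in *Sox17*-*Erg* libraries, with no marker at 0. Over all genes, 7.19%, 9.48% and 11.9% were called higher. The part of these markers in the higher level of either cadherin was not tested.

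*Cdh11* encodes OB-cadherin (cadherin-11), a type II cadherin of mesenchymal cells and a known marker of activated fibroblasts, and lies on chromosome 8 at 102632095–102785642. It was measured in control libraries at 230 and 182 CPM on Day 3, 325 and 278 on Day 7, and 357 and 281 after 4 weeks, and *Sox17*-*Erg* libraries at 161 and 155, 136 and 123, and 81.1 and 83.7. All *Sox17*-*Erg* values lay below all control values, and the trends ran in opposite directions. The log2 fold change was −0.38 ± 0.16 at Day 3 (adjusted p = 0.14), −1.22 ± 0.16 at Day 7 (2.32-fold lower, adjusted p = 0.0014) and −1.95 ± 0.16 at 4 weeks (3.87-fold lower, adjusted p = 7.6e-05).

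From Day 3 to 4 weeks *Cdh11* rose 1.55-fold in control samples (adjusted p = 0.018) and fell 1.92-fold in *Sox17*-*Erg* samples (adjusted p = 0.0034). The difference between these changes was −1.57 ± 0.22 on the log2 scale (adjusted p = 0.0083), where 0.987% of all genes were called in this direction. Of 8 fibroblast markers, 4 were lower in *Sox17*-*Erg* samples at 4 weeks (*Dcn* by 3.31, *Lum* by 3.39, *Pdgfra* by 2.29 and *Tcf21* by 2.14 on the log2 scale) and 1, *Postn*, was higher, at a log2 fold change of 4.74. The summed level of the 8 was 14000 and 12500 CPM in control and 10100 and 11000 in *Sox17*-*Erg* libraries at 4 weeks, and 19700 and 24300 against 29700 and 30800 at Day 7, so that it was the lower in *Sox17*-*Erg* at 4 weeks and the higher at Day 7. The markers' part in the fall of *Cdh11* was not tested.

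In the time comparison as a whole, 2 of 9 members were called within control, *Cdh11* and *Jup*, and both rose, where 13.9% of all genes were called higher and 12.6% lower. Within *Sox17*-*Erg* samples 2 rose, *Cdh13* and *Ctnnb1*, and 1 fell, *Cdh11*, against 15.1% and 15.6% of all genes. With a replicate block within each time point 5 members were called in each, with *Cdh2*, *Cdh13* and *Ctnnd1* added as lower in control, and *Cdh2* and *Cdh3* as lower in *Sox17*-*Erg* samples.

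*Cdh2*, *Cdh3* and *Cdh4* are classical type I cadherins. *Cdh2* encodes N-cadherin, which joins cardiomyocytes, fibroblasts and endothelial cells to their neighbors and lies on chromosome 18 at 16588877–16809246. The control values were 684 and 737 CPM on Day 3, 481 and 528 on Day 7, and 482 and 464 after 4 weeks, and the *Sox17*-*Erg* values 700 and 825, 618 and 489, and 620 and 424. The groups overlapped at each time point. The log2 fold changes were 0.10 (95% interval −0.34 to 0.55), 0.13 (−0.31 to 0.58) and 0.14 (−0.30 to 0.59), with adjusted p of 0.77, 0.68 and 0.65. The replicate 1 library of *Sox17*-*Erg* set the sign at Day 7 and 4 weeks, and without it the values were −0.04 and −0.17. From Day 3 to 4 weeks *Cdh2* changed by −0.59 in control (adjusted p = 0.056) and −0.55 in *Sox17*-*Erg* samples (adjusted p = 0.064) on the log2 scale. With a replicate block within each time point both passed, at −0.58 (adjusted p = 0.035) and −0.56 (adjusted p = 0.036).

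*Cdh3* encodes P-cadherin, an epithelial and mesothelial cadherin, and lies on chromosome 8 at 106510891–106557297. In control libraries it stood at 22.2 and 8.55 CPM on Day 3, 17.6 and 11.5 on Day 7, and 14.6 and 11.8 after 4 weeks, and in *Sox17*-*Erg* libraries at 7.14 and 4.57, 6.51 and 5.23, and 3.04 and 2.85. Each *Sox17*-*Erg* value was below each control value, and control replicate 1 was the higher of its pair at all 3 time points. The log2 fold change was −1.40 ± 0.42 at Day 3 (adjusted p = 0.059), −1.31 ± 0.42 at Day 7 (adjusted p = 0.060) and −2.16 ± 0.43 at 4 weeks (4.47-fold lower, adjusted p = 0.0072). With the replicate number as a block, the values were −1.33 (adjusted p = 0.019) at Day 3 and −1.29 (adjusted p = 0.014) at Day 7, both past the threshold, and the change within *Sox17*-*Erg* samples from Day 3 to 4 weeks was −0.95 (adjusted p = 0.038, and 0.12 without the block). The value on Day 3 was −0.55 (adjusted p = 0.38) without control replicate 1 of that day and −1.96 (adjusted p = 0.026) without control replicate 2. The call at 4 weeks was lost without *Sox17*-*Erg* replicate 1 of that time (adjusted p = 0.055).

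Mesothelial and epicardial markers moved with *Cdh3*. Their summed level over 6 genes was 295 to 1450 CPM in control and 130 to 321 in *Sox17*-*Erg* libraries, none of the 6 was at 0 in any library, and all 6 were called lower at 4 weeks, with *Krt19*, *Lrrn4* and *Upk3b* at log2 fold changes of −2.92, −2.87 and −2.80. Within the control pairs the marker sum was also higher in replicate 1, at 781 against 295, 1070 against 558 and 1450 against 918 CPM. Over time in control the sum thus rose, while *Cdh3* changed by −0.22 on the log2 scale from Day 3 to 4 weeks (edgeR, adjusted p = 0.72). The part of these markers in the lower level of *Cdh3* was not tested.

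*Cdh4* encodes R-cadherin, known from retina and brain, and lies on chromosome 2 at 179442431–179899373. It had 1, 1, 0, 3, 4 and 1 counts in the control libraries and 4, 0, 9, 1, 6 and 4 in the *Sox17*-*Erg* libraries, in order of time, and did not pass the filter on low counts. No difference was found over the 3 time points together, in an exact permutation test within time points (p = 0.18), and a count of 0 allows up to 3 counts.

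**Figure D2:**
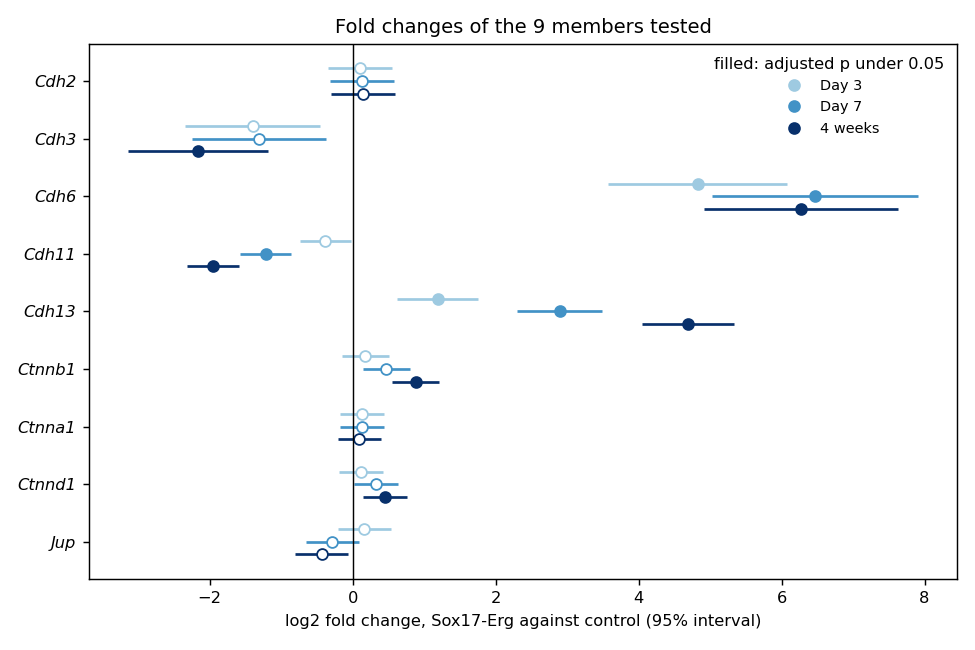
Log2 fold change of *Sox17*-*Erg* against control for the 9 members tested, with 95% intervals from the edgeR fit at Day 3 (light), Day 7 and 4 weeks (dark), filled where the adjusted p was under 0.05. *Cdh6* lies between 4.83 and 6.47, *Cdh13* climbs from 1.19 to 4.69, *Cdh11* descends from −0.38 to −1.95, and all intervals of *Cdh2* and *Ctnna1* include 0.

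Among the catenins, *Ctnnb1* encodes β-catenin, which couples cadherins to α-catenin and also acts in the nucleus with TCF and LEF factors in Wnt signaling. It lies on chromosome 9 at 120929216–120960507. Control libraries stood at 520 and 614 CPM on Day 3, 564 and 642 on Day 7, and 540 and 572 after 4 weeks, and *Sox17*-*Erg* libraries at 619 and 665, 866 and 804, and 1090 and 953. The groups did not overlap within any time point, and the *Sox17*-*Erg* values climbed while the control values stayed between 520 and 642. The log2 fold change was 0.18 ± 0.15 at Day 3 (adjusted p = 0.45), 0.47 ± 0.15 at Day 7 (adjusted p = 0.055) and 0.88 ± 0.15 at 4 weeks (1.84-fold, adjusted p = 0.0029). Within *Sox17*-*Erg* samples it rose 1.60-fold from Day 3 to 4 weeks (adjusted p = 0.0092). The difference in effect between these times was 0.70 (adjusted p = 0.12), and DESeq2 gave an adjusted p of 0.0065 for it.

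*Ctnnd1* encodes p120-catenin and lies on chromosome 2 at 84600071–84650765. Control libraries stood at 381 and 402 CPM on Day 3, 278 and 287 on Day 7, and 308 and 289 after 4 weeks, and *Sox17*-*Erg* libraries at 404 and 446, 373 and 336, and 452 and 363. The *Sox17*-*Erg* values were the higher in each pairing within a time point. The log2 fold change was 0.12 (adjusted p = 0.61), 0.33 (adjusted p = 0.13) and 0.45 ± 0.14 at 4 weeks (1.37-fold, adjusted p = 0.042). That call was lost when any library other than *Sox17*-*Erg* replicate 2 of 4 weeks was left out, at adjusted p of 0.051 to 0.26, and in a fit of 4 weeks alone (adjusted p = 0.11). Within control samples the log2 change from Day 3 to 4 weeks was −0.39 (adjusted p = 0.061, and 0.034 with a replicate block within each time point). Of the 31-base words of *Ctnnd1* transcripts, 58.6% also occur in another gene, and the overlapping same-strand gene *Gm28635* had 0 to 1263 counts against 7117 to 13530 for *Ctnnd1*, so the split of reads between them is uncertain.

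*Ctnna1* encodes α-catenin, the link to actin, and lies on chromosome 18 at 35118859–35254779. Its control values were 457 and 447, 431 and 412, and 504 and 477 CPM over the 3 time points, and its *Sox17*-*Erg* values 481 and 505, 477 and 447, and 585 and 462. The groups overlapped at 4 weeks only, and all differences were small. The log2 fold changes were 0.13 (95% interval −0.18 to 0.43), 0.13 (−0.17 to 0.44) and 0.09 (−0.21 to 0.40), with adjusted p of 0.58, 0.54 and 0.66.

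*Jup* encodes plakoglobin (γ-catenin), which takes the place of β-catenin at some adherens junctions and is a core part of desmosomes. It lies on chromosome 11 at 100368958–100397763. The gene stood in control libraries at 202 and 193 CPM on Day 3, 309 and 242 on Day 7, and 274 and 370 after 4 weeks, and in *Sox17*-*Erg* libraries at 222 and 221, 215 and 237, and 247 and 229. The order of the groups changed, since *Sox17*-*Erg* was the higher at Day 3 and control at the later times. The log2 fold change was 0.16 (adjusted p = 0.55), −0.29 (adjusted p = 0.27) and −0.44 (adjusted p = 0.090), and none passed. Within control samples *Jup* rose 1.63-fold from Day 3 to 4 weeks (adjusted p = 0.015), and within *Sox17*-*Erg* samples the log2 change was 0.11 (adjusted p = 0.67).

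Over the 3 time points together, an exact two-sided permutation test within time points (smallest possible p = 0.0093) gave p = 0.0093 for *Cdh3*, *Cdh6*, *Cdh11*, *Cdh13*, *Ctnnb1* and *Ctnnd1*, whose groups did not overlap within any time point. The mean log2 CPM differences were −1.55, 5.91, −1.18, 2.92, 0.51 and 0.29. The share of all genes that separate in this way was not computed, so the number of such members cannot be set against it. For *Cdh2*, *Cdh4*, *Ctnna1* and *Jup* the p-values were 0.31, 0.18, 0.065 and 0.21. *Cdh5* had a difference of 7.70 and the same smallest p.

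**Figure D3:**
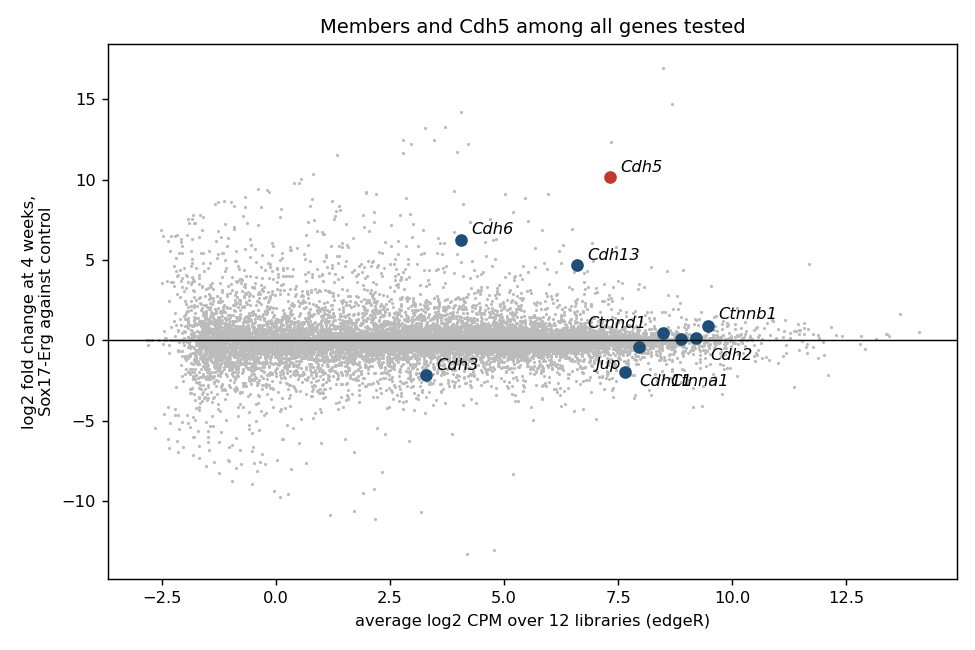
Log2 fold change at 4 weeks against the average log2 CPM for the 15506 genes tested (grey), with the 9 members tested in blue and *Cdh5* in red. *Cdh6* and *Cdh13* stand above the main cloud at 6.27 and 4.69, below *Cdh5* at 10.17, while the catenins lie among the genes of highest level with fold changes between −0.44 and 0.88.

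Levels of different genes were set side by side as CPM per kb of exon. In control samples at 4 weeks the order was *Ctnnb1* at 107 ± 4.36 (SD, n = 2), *Ctnna1* at 76.3 ± 2.97, *Cdh2* at 58.6 ± 1.58, *Jup* at 50.0 ± 10.5, *Ctnnd1* at 40.8 ± 1.84, *Cdh11* at 35.8 ± 6.04, *Cdh3* at 3.01 ± 0.45, *Cdh13* at 1.14 ± 0.39 and *Cdh6* at 0.060 ± 0.037. *Cdh2*, *Jup*, *Ctnnd1* and *Cdh11* lay within 1 SD of a neighbor or close to it. In *Sox17*-*Erg* samples at 4 weeks *Ctnnb1* was at 197 ± 18.7, *Ctnna1* at 81.5 ± 13.5, *Cdh2* at 64.7 ± 17.2, *Ctnnd1* at 55.7 ± 8.60, *Jup* at 37.0 ± 1.98, *Cdh13* at 29.5 ± 9.38, *Cdh11* at 9.25 ± 0.21, *Cdh6* at 4.31 ± 0.38 and *Cdh3* at 0.67 ± 0.031. *Cdh13* stood above *Cdh11*, and the order from *Ctnna1* to *Ctnnd1*, and of *Jup* and *Cdh13*, was within the SDs. The order also depends on the length used. Per kb of the longest transcript, *Jup* at 74.3 ± 3.97 and *Cdh13* at 72.6 ± 23.1 were no longer below *Ctnnd1* at 64.1 ± 9.89, while *Cdh11* was at 14.6 ± 0.33.

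The cadherin make-up of the cultures changed through these shifts. As a share of the summed length-scaled level of 23 cadherin genes, *Cdh2* made 73.3% ± 3.47 (SD, n = 2) in control samples at Day 3 and 54.8% ± 3.10 at 4 weeks, and 57.5% ± 6.87 and 29.8% ± 1.97 in *Sox17*-*Erg* samples. *Cdh11* went from 19.3% ± 3.27 to 33.3% ± 2.84 in control and from 10.8% ± 0.25 to 4.38% ± 0.98 in *Sox17*-*Erg* samples. *Cdh13* made 1.05% ± 0.28 in control and 13.5% ± 1.63 in *Sox17*-*Erg* samples at 4 weeks. *Cdh5* made 0.093% ± 0.058 and 49.2% ± 1.95.

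The share of *Cdh2* in *Sox17*-*Erg* samples lay below that in control at each time point while its CPM overlapped. The summed level itself was 101 to 121 CPM per kb in the control libraries and 153 to 247 in the *Sox17*-*Erg* libraries. *Cdh6*, in spite of the largest fold change of the members, made 2.02% ± 0.23 at 4 weeks. With the longest transcript in place of all exons as the gene length, the share of *Cdh13* at 4 weeks was 22.9% and that of *Cdh5* 35.7%, and *Cdh2* made 34.2%.

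**Figure D4:**
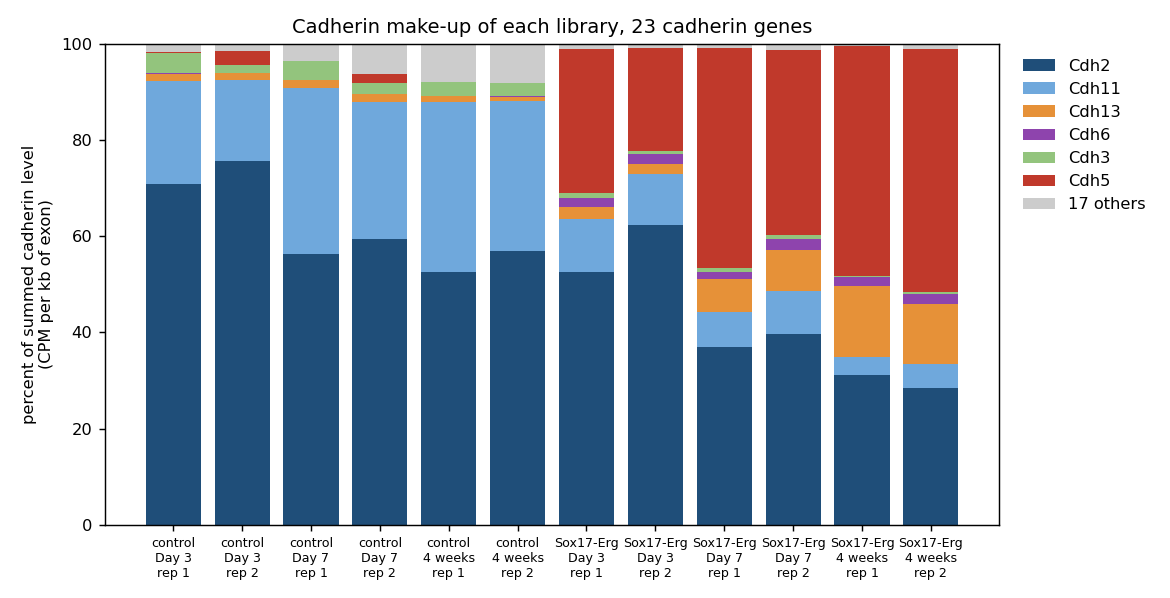
Share of the summed cadherin level (percent of CPM per kb of exon, 23 genes) in each of the 12 libraries, stacked by gene. *Cdh2* and *Cdh11* make most of every control bar, and *Cdh5* and *Cdh13* take up 49.2% and 13.5% on average of the *Sox17*-*Erg* bars at 4 weeks.

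Of 17 other cadherins, 5 passed the filter on low counts, and at 4 weeks 3 of these were higher and 1 lower. *Cdh5* stood at 0.910 and 14.3, 0.230 and 8.08, and 0.251 and 0.569 CPM in control and at 208 and 148, 400 and 248, and 496 and 394 in *Sox17*-*Erg* libraries (log2 fold change 10.17 ± 1.67 at 4 weeks, adjusted p = 0.0027). *Cdh19*, a cadherin of Schwann cell precursors, went from 4.18 and 4.99 CPM at Day 3 to 35.6 and 33.1 at 4 weeks in control libraries, and was 0.905 to 3.26 CPM in all *Sox17*-*Erg* libraries (log2 fold change −4.02 ± 0.59 at 4 weeks, adjusted p = 0.0016). The other Schwann and glial markers measured are in the sum of 5 genes, *Cdh19* included, which was 7.21 to 37.5 CPM in control and 2.28 to 7.04 in *Sox17*-*Erg* libraries, and their part was not tested. *Cdh10* and *Cdh24* were higher at 4 weeks, by 2.12 and 1.49 on the log2 scale, at levels of at most 3.80 CPM. E-cadherin, *Cdh1*, was at 0 to 0.165 CPM.

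Of 6 other catenin family genes, 1 was higher and 1 lower at 4 weeks, where 11.9% and 11.0% of all genes were. *Pkp4*, a p120-related gene, was higher by 0.81 (adjusted p = 0.015), and *Arvcf*, another, was lower at all 3 time points, with a log2 fold change of −0.98 at 4 weeks (adjusted p = 0.0070). *Ctnnal1* was lower at Day 3, at −0.80 (adjusted p = 0.016), and at −0.02 by 4 weeks (adjusted p = 0.94).

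Of 23 adherens junction partners, 8 were higher and 3 lower at 4 weeks, where 11.9% and 11.0% of all genes were. The median log2 fold change was 0.31 beside −0.01 over all genes. *Ptprb* encodes VE-PTP, the phosphatase that binds VE-cadherin, and was the most changed. It stood at 20.7 to 173 CPM in control and 579 to 819 in *Sox17*-*Erg* libraries, with log2 fold changes of 2.13, 3.90 and 4.31 at the 3 time points (adjusted p = 0.014, 0.00067 and 0.00025). *Ajuba*, a LIM protein that binds α-catenin, was higher by 1.43 (adjusted p = 0.0020) and *Ptprm*, a homophilic receptor phosphatase, was called at all 3 time points, by 1.11 at Day 3 (adjusted p = 0.013). *Plekha7*, a p120-binding junction protein, was lower, at −1.63 (adjusted p = 0.011), and so were *Ptprk*, at −1.09 (adjusted p = 0.027), and *Limd1*, at −0.75 (adjusted p = 0.025).

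Of 10 desmosome genes, 7 were tested, and at 4 weeks *Pkp1* was higher by 4.63 (adjusted p = 0.0078) and *Pkp2*, the plakophilin of the heart, was lower, at −2.14 (adjusted p = 0.0078). The value for *Pkp1* rested on low levels, at 0.0407 and 0.125 CPM in control and 1.24 and 3.48 in *Sox17*-*Erg* libraries at 4 weeks. Cardiomyocyte markers were also lower in part, with 3 of 6 called at 4 weeks and sums of 615 to 1510 CPM in control and 329 to 679 in *Sox17*-*Erg* libraries, and their part in the fall of *Pkp2* was not tested.

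Of 16 genes for β-catenin turnover and its nuclear partners, 5 were called at 4 weeks, each higher, beside a median log2 fold change of 0.27 for the list. They were *Tcf7* at 2.39 (adjusted p = 0.035), a TCF factor, *Ctnnbip1* at 0.78 (adjusted p = 0.0057), an inhibitor of β-catenin binding to TCF, *Bcl9* at 0.63 (adjusted p = 0.018), a coactivator, *Gsk3b* at 0.55 (adjusted p = 0.0040), a kinase that marks β-catenin for breakdown, and *Fbxw11* at 0.28 (adjusted p = 0.049), a subunit of the ligase that tags it. *Tcf7* was at low levels, 0.15 and 0.244 CPM in control and 0.63 and 1.42 in *Sox17*-*Erg* libraries at 4 weeks. *Axin2*, a target gene of Wnt signaling, stood at 0.786 to 2.46 CPM in control and 1.42 to 3.19 in *Sox17*-*Erg* libraries and was not called at any time point.

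Of 5 genes that process cadherins, 2 were higher and 1 lower at 4 weeks, where 11.9% and 11.0% of all genes were. The proprotein convertases *Pcsk5* and *Furin*, which cut cadherin precursors and other proproteins, were higher by 2.10 (adjusted p = 0.0057) and 0.96 (adjusted p = 0.00088), and *Pcsk6* was lower, at −1.68 (adjusted p = 0.0060). The other 2, *Adam9* and *Adam10*, were not called at any time point.

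**Figure D5:**
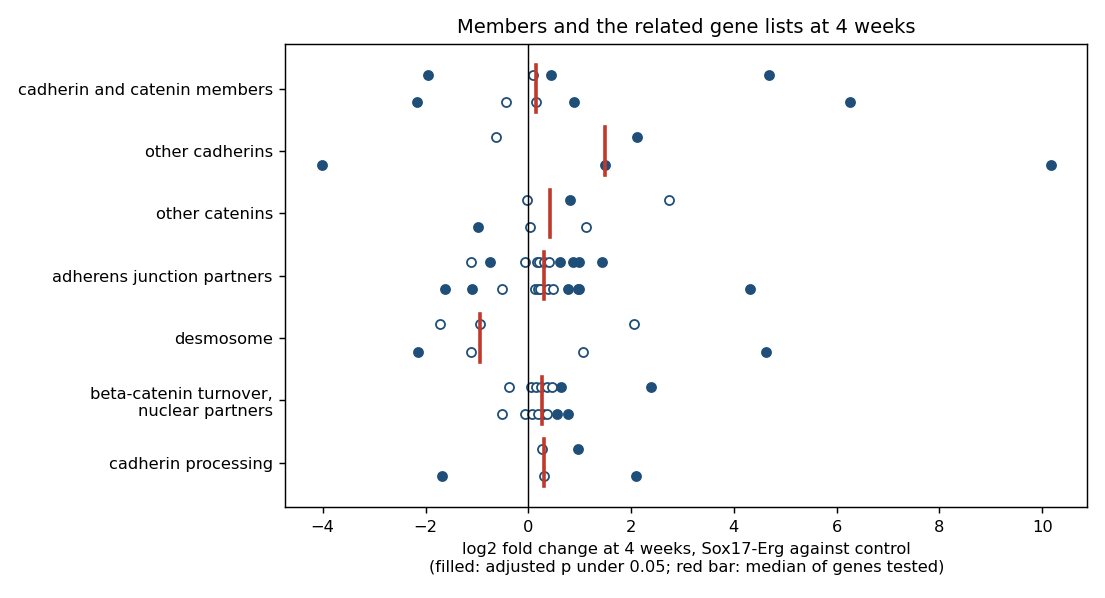
Log2 fold change at 4 weeks of the tested members and genes of each related list, filled where the adjusted p was under 0.05, with a red bar at the median. Cell type markers are not shown. Most of the lists shown hold genes on either side of 0. Their medians run from −0.94 for the desmosome genes to 1.49 for the other cadherins, of which 5 were tested.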

How the data were processed

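Bulk RNAseq of 12 libraries (6 groups of 2) was analysed. The authors trimmed reads with BBDuk, quantified them with Salmon and deposited a table of estimated counts, rounded to whole numbers and not scaled for library size. The labels name bcl2fastq 2.20.0 and mm10. The Salmon version and annotation release are not given in the sources used here. Symbols, positions and exon lengths came from GENCODE M21 (GRCm38), which held 35493 of the 35727 genes, and 0 columns were left unmapped.

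Samples were grouped by treatment and time from the labels. The model was fitted with edgeR 4.0.16 under R 4.3.3 (TMM, filterByExpr with a minimum count of 10 and total of 15, quasi-likelihood test, 1 mean per group, 6 residual degrees of freedom), and p-values were adjusted over all 15506 genes tested, with calls at an adjusted p under 0.05. Log2 CPM values for permutation and likeness used a prior count of 2. DESeq2 1.42.0 was an alternative, and others were its size factors, other filters, single time points, a replicate block and leaving out each library. The fit was tested on simulated data. Counting error is small beside the spread between libraries.

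The members and the gene lists were chosen with earlier results of these data known. All members were described, and from each list the genes called at any time point, up to 6 with the largest fold change, were eligible to be named. *Axin2*, *Fbxw11* and *Cdh1* were named after their values were seen. *Adam9* and *Adam10* were named although not called at any time point. Replicate numbers came from the labels, and across genes the deviations of same-numbered control and *Sox17*-*Erg* libraries correlated by 0.19, 0.30 and 0.17, and no source says what a number marks. The main fit and the permutation test used no pairing, and values with the replicate block are given where they change a call. Besides the 5 genes given, 1 gene of the cadherin processing list was left out and is not reported here. The other experiments of the study were not analysed here.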

Additional observations from a re-analysis of the deposited data

Results flagged for a closer look

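The effect of *Sox17*-*Erg* differed between Day 3 and 4 weeks for 2 of the 9 members tested, by the interaction term of the edgeR fit. For *Cdh13* the log2 effect was larger at 4 weeks by 3.497 (95% interval 2.69 to 4.31, adjusted p = 0.0031), and over all alternatives it lay between 3.16 and 3.91. For *Cdh11* it was −1.571 (−2.08 to −1.07, adjusted p = 0.0083), with a range of −1.75 to −1.34, and both members were called under each alternative that could test it. Groups of 2 libraries are too small for a test of single outlying samples.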

How the results depend on the processing

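The calls for *Cdh6* at all times, *Cdh13* and *Cdh11* at Day 7 and 4 weeks and *Ctnnb1* at 4 weeks held under all 19 alternatives, with log2 fold changes at 4 weeks of 5.64 to 7.00, 4.32 to 5.10, −2.11 to −1.77 and 0.77 to 0.95. The number of members called lower at Day 3 was 1 in place of 0, and at Day 7 2 in place of 1, with DESeq2, with no filter on low counts, with a replicate block and with a replicate block within each time point (added after the data were seen). In each of these the added gene was *Cdh3*. The replicate block within each time point also called *Ctnnb1* at Day 7 (0.47, adjusted p = 0.041), as did DESeq2 (adjusted p = 0.0078), and beyond the values given for *Cdh2*, *Cdh3*, *Cdh13*, *Ctnnb1* and *Ctnnd1* the blocks changed no member's call. The number of members called from Day 3 to 4 weeks in control was 4 in place of 2 with DESeq2 and with no filter, 5 with the replicate block within each time point (in *Sox17*-*Erg* 5 in place of 3) and 0 at an adjusted p under 0.01, where 1 member was called higher at Day 3. The cause was not tested.

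Leaving out 1 library at a time gave 1 to 2 members higher and 0 to 1 lower at Day 3, 2 to 2 and 1 to 2 at Day 7, and 3 to 4 and 1 to 3 at 4 weeks. It gave 0 to 4 over time in control, 2 to 4 over time in *Sox17*-*Erg* and 2 to 2 for the difference in effect. A group left with 1 library was assumed to vary like the others. Without control replicate 1 of 4 weeks, *Jup* was called lower at 4 weeks (−0.64, adjusted p = 0.043), and without control replicate 2 of Day 3, *Cdh3* was called lower at Day 3.

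Signs turned for values near 0, none of them past the threshold. Leaving out single libraries, *Cdh2* ranged from −0.024 to 0.17 on Day 3, from −0.044 to 0.25 on Day 7 and from −0.17 to 0.36 after 4 weeks, and its difference in effect from −0.23 to 0.28. *Ctnna1* ranged from −0.093 to 0.23 at 4 weeks, and its difference in effect from −0.18 to 0.12, and was 0.00045 with DESeq2 size factors. With the longest transcript as gene length, shares moved as given for *Cdh13*, *Cdh5* and *Cdh2*. With 2 libraries per group, 1 time point alone cannot give a permutation p under 0.05.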
